A study of Homo sapiens with 2 samples.

Results

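SR proteins and hnRNP proteins are the families of RNA-binding proteins that steer the choice of splice sites. SR proteins (genes SRSF) carry RNA recognition motifs and a tail rich in arginine and serine. They bind exonic enhancers and recruit the U1 and U2 small nuclear ribonucleoproteins (snRNPs). Proteins of the hnRNP families (genes HNRNP) coat nascent transcripts and often block the same sites, and both families also act in the export, stability and translation of mRNA. Many of these genes limit their own expression by including exons that send their mRNA to nonsense-mediated decay. Some hnRNP A/B proteins also bind single-stranded telomeric repeats.

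The genes were taken by symbol, as all those beginning with SRSF or HNRNP that had at least 1 probe set assigned to a single gene. There were 34 of them, 12 SRSF and 22 HNRNP, among 18132 such genes on the array, and they were measured by 137 probe sets. Each gene is given by the brightest of its probe sets, the one with the highest mean log2 signal over both arrays. Of the 34, 30 passed a floor at which the higher of the 2 array signals reached 78.0, the median of all non-control signals, against 10437 of 18132 genes in all. These were 11 SR genes and 19 hnRNP genes, with 125 probe sets past the floor. The other 4 were SRSF12, HNRNPA1L2, HNRNPCL1 and HNRNPCL2, whose signals lay between 8.59 and 22.3 on both arrays and are not interpreted. A further 6 symbols of the families were found only on probe sets shared with other genes: HNRNPH2, HNRNPCL3, HNRNPCL4, HNRNPA1P10, HNRNPA3P1 and HNRNPUL2-BSCL2.

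The study infected HCT116 cells, an epithelial colorectal carcinoma line, with a lentivirus carrying an shRNA against RAP1 (labelled sh-RAP1-4#, here shRAP1) or a negative-control shRNA (here shNC). Both cultures were seeded at 100000 cells per well, infected at a multiplicity of infection of 20 and collected at 72 h. Each group was 1 culture on 1 array, with a single shRNA against RAP1. No difference here therefore has a replicate check or a p-value, and having 2 arrays in all sets the precision. The stated question was how RAP1 acts on colorectal cancer cells. The label does not say which gene named RAP1 was targeted. On its 1 probe set past the floor, TERF2IP, the telomere-binding protein also called RAP1, had 624 in shRAP1 and 1311 in shNC. That is 47.6% of the control. The GTPase gene RAP1A, which shares the name, differed by −0.18 and RAP1B by −0.10 on the log2 scale. RAP1A was lower on each of 3 probe sets and RAP1B on each of 2.

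Array-wide, the log2 signals of the 2 arrays correlated at 0.997 across probe sets. Differences are given as log2 shRAP1 minus log2 shNC, and 95% of genes lay between −0.29 and 0.32. Epithelial markers were present in both cultures, with 6 of 7 listed genes past the floor and a summed signal of 31728 in shRAP1 and 30955 in shNC; VIL1 was below the floor. Of 8 leukocyte markers 7 had a probe set and 1 passed the floor (HLA-DRA), and the summed signal was 402 in shRAP1 and 349 in shNC. Of 8 fibroblast and endothelial markers 2 passed, KDR and VWF, and the summed signal was 418 in shRAP1 and 396 in shNC. Of the polyadenylated spike-in controls, dap, lys and phe had median differences of −0.30, −0.41 and −0.29 and thr 0.41. These sizes were above those of nearly all the splicing factor genes, and the part of these controls in the results was not tested. The hybridisation controls bio and cre had median differences of −0.0038 and −0.027. In bulk RNA, fewer cells with a transcript and less of it per cell cannot be told apart.

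On their brightest probe sets, most SR genes were lower in shRAP1 than in shNC by small amounts and hnRNP genes were more mixed, but this contrast between the families rests on the choice of probe set. Of the 11 SR genes 10 were lower and 1, SRSF11, was higher, and the median SR difference was −0.10, or 93.3% of the control. Among the 19 hnRNP genes 12 were lower and 7 higher, and their median was −0.03. By the median over each gene's probe sets, 15 of 19 hnRNP genes and 10 of 11 SR genes were lower, and the family medians were −0.11 for hnRNP and −0.12 for SR genes. With the _x_at and _s_at probe sets left out they were −0.13 for hnRNP and −0.11 for SR genes. These last medians cover the 14 hnRNP and 8 SR genes that remained, so the set of genes changed too. On the brightest probe sets together 22 of 30 were lower and 8 higher, where 46.8% of all 10437 genes were lower and 53.2% higher. The median of the 30 was −0.06 and that of all genes 0.01. Differences among the 30 genes ran from −0.29 for HNRNPU to 0.12 for HNRNPAB.

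Few of these differences were large. A single gene, HNRNPU, was lower by 1.2-fold or more, a size reached by 3.58% of all genes, and HNRNPA2B1 lay just inside that size at −0.26. Both rest on the choice of probe set: as the median of all its probe sets HNRNPU was at −0.11 and HNRNPA2B1 at −0.12, and with the _x_at and _s_at probe sets left out HNRNPU was at −0.10 and HNRNPA2B1 at 0.03. No gene of the families was higher by that size, where 4.96% of all genes were. Among genes in the signal range of the families, 3.25% were lower and 2.90% higher by that size. None of the families' genes reached 1.5-fold, as did 0.172% of all genes in the lower and 0.211% in the higher direction, or 2-fold (0.0192% in each direction). Genes of similar signal gave a further measure: the genes nearest in mean log2 signal to each of these 30 (a fixed number per gene) had differences with an SD between 0.0973 and 0.153. HNRNPU and HNRNPA2B1 lay 2.69 and 2.46 such SDs below 0, and no other gene of the families reached 2, where 2.32% of all genes were lower and 2.49% higher by that much. That SD is a spread over genes, not an experimental error.

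Part of the shift was shared with other bright genes. The medians of these neighbouring genes were themselves slightly negative, with a median of −0.02 over the 30 genes. Set against its own neighbours, a gene of the SR family was lower in 10 of 11 cases, with a median of −0.07. For hnRNP genes this was 11 of 19, with a median of −0.0073. Over all genes it was 5182 of 10437, with a median of 0.00077.

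**Figure D1:**
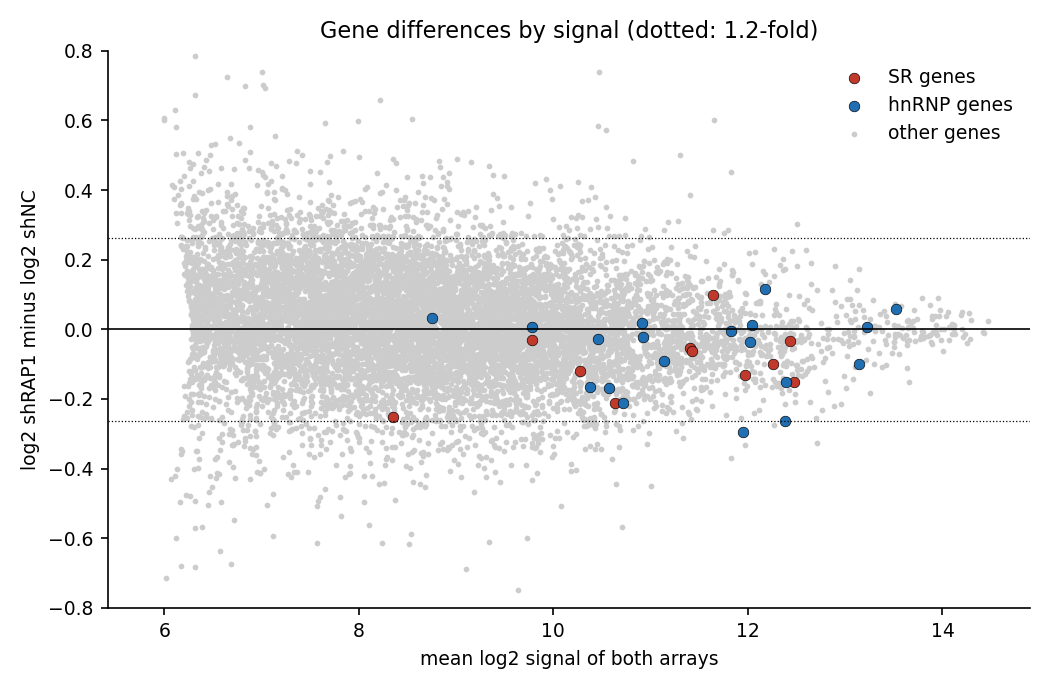
Difference of log2 signal (shRAP1 minus shNC, vertical axis, cropped so that the few most extreme other genes are not drawn) against the mean log2 signal of both arrays, for SR genes (red), hnRNP genes (blue) and all other genes past the floor (grey); dotted lines mark 1.2-fold. Nearly all SR genes sit just below 0, and HNRNPU is the single coloured point past the lower dotted line.

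The upstream sequences of these genes show where they share promoter letters and where they do not. RefSeq promoter windows on GRCh38.p14, from 250 bases before to 50 after a transcription start, were matched by gene ID for 28 of the 30 genes, with 42 windows since some genes have several starts; SRSF2 and HNRNPA1 had no entry. The median GC content was 64.8% for the 42 windows and 58.7% for all 35116 windows. The CCAAT box (CCAAT) was found on either strand in 21 of 42 windows, against 34.6% of all windows. The GC box (GGGCGG) was found in 25, or 59.5%, against 45.0%, and the E-box (CACGTG) in 7, or 16.7%, against 7.26%. TATAAA was found in 6 windows (14.3%, against 11.5%) and the ETS site CCGGAAG in 5 (11.9%, against 10.3%). The YY1 site AAGATGGC and the palindromic NRF1 site were found in none, against 2.89% and 1.24%. The telomere repeat TTAGGG was found in 2 windows, of HNRNPH3 and HNRNPLL (4.76%, against 9.05%). Both strands were searched, windows of 1 gene can overlap, and a match is a description, not a shown binding site. The windows that follow are those of the genes at the ends of the range, the 3 lowest among those with an entry and the 2 highest, each 5′ to 3′ on the gene's own strand with any of these 8 motifs in capitals.
HNRNPU, chr1:244864494-244864793, minus strand, difference −0.29: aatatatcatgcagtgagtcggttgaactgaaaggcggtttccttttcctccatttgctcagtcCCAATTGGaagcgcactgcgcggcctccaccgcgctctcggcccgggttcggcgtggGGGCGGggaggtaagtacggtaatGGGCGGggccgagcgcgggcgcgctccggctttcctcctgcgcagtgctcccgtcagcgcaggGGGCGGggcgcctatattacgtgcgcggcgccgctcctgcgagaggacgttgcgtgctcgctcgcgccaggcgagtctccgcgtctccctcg
HNRNPA2B1, chr7:26200697-26200996, minus strand, difference −0.26: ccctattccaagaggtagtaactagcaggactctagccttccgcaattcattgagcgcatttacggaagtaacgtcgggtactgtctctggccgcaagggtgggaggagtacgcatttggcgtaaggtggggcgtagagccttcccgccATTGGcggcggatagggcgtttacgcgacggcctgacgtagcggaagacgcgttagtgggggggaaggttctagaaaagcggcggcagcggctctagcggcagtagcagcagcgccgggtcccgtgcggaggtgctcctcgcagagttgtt
SRSF8, chr11:95066627-95066926, plus strand, difference −0.25: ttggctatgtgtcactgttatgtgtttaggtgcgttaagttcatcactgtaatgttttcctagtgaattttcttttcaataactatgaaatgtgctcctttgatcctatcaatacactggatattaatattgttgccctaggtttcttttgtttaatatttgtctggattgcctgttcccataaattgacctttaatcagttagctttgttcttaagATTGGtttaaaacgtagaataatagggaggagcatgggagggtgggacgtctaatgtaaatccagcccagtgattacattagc
SRSF11, chr1:70205446-70205745, plus strand, difference 0.10: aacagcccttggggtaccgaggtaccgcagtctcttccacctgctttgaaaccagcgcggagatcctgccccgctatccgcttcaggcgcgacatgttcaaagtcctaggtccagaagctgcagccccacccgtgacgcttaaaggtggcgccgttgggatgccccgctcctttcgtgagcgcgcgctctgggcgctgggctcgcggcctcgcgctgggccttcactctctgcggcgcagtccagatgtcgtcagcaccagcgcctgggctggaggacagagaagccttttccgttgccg
HNRNPAB, chr5:178204283-178204582, plus strand, difference 0.12: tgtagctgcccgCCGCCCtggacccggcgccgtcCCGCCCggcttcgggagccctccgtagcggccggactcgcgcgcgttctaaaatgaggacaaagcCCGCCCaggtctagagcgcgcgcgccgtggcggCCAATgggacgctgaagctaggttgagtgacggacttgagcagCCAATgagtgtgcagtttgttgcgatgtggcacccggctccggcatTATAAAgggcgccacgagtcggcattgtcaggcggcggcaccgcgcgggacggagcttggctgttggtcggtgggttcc
The HNRNPU window holds GC boxes and a CCAAT box that overlaps its own reverse complement. The SRSF8 window has a GC content of 36.0%, the lowest of the 42, and a single reversed CCAAT box. The SRSF11 window at its first listed start holds none of the 8 motifs, and the HNRNPAB window holds CCAAT boxes, GC boxes and TATAAA. Another SRSF11 window, at a later start and not printed here, holds a GC box and a reversed TATAAA. The HNRNPA2B1 window holds a CCAAT box and no GC box.

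Among the SR genes, SRSF1, SRSF2, SRSF7, SRSF6 and SRSF9 were lower on each of their probe sets past the floor. SRSF1, the founding SR protein and a known proto-oncogene product, had a signal of 3831 in shRAP1 and 4192 in shNC on its brightest probe set, a difference of −0.13. Its 6 probe sets lay between −0.35 and −0.13. The largest of these, 1629 in shRAP1 and 2082 in shNC, was well apart from the other SRSF1 probe sets, which were all above −0.20.
SRSF2, a marker protein of nuclear speckles, had 1476 in shRAP1 and 1709.9 in shNC, a difference of −0.21, with 3 probe sets between −0.29 and −0.19. It was the lowest SR gene with more than 1 probe set. SRSF9, a close relative of SRSF1, had 5395 in shRAP1 and 5987 in shNC (−0.15), and its other 2 probe sets past the floor were at −0.24 and −0.21. SRSF7, which carries a zinc knuckle and also serves mRNA export, had 4725 in shRAP1 and 5064 in shNC (−0.10), with 4 probe sets between −0.22 and −0.08. SRSF6, of the SR proteins with a pair of RNA recognition motifs, was at −0.06 and −0.19 on its 2 probe sets.

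SRSF8, which arose from a retrotransposed copy of SRSF2, had the lowest brightest-probe-set difference of the SR genes. Its only probe set read 299 in shRAP1 and 356 in shNC, a difference of −0.25. SRSF4, also on a single probe set, had 868 in shRAP1 and 886 in shNC (−0.03), so the 2 single-probe-set SR genes stand at either end of the lower members.

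SRSF3, SRSF5 and SRSF10 were lower on most but not all probe sets. SRSF3, the smallest SR protein and a regulator of polyadenylation as well as splicing, had 5480 in shRAP1 and 5607 in shNC (−0.03) on the brightest probe set. Of its 7 probe sets 6 were lower, down to −0.30 on one with 102 in shRAP1 and 125 in shNC, and one near the floor was higher at 0.10. SRSF10, a splicing repressor when dephosphorylated, had 1191 in shRAP1 and 1296 in shNC (−0.12). Its 7 probe sets ran from −0.33 to 0.08, with 6 lower.

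SRSF11, which binds the 3′ splice site factor U2AF and promotes small exons in neurons, was the only SR gene with a higher signal on its brightest probe set. It read 3309 in shRAP1 and 3089 in shNC, a difference of 0.10. Of its 6 probe sets 5 were higher, up to 0.16, and 1 was lower at −0.06. The 4 brightest were all between 0.10 and 0.16.

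**Figure D2:**
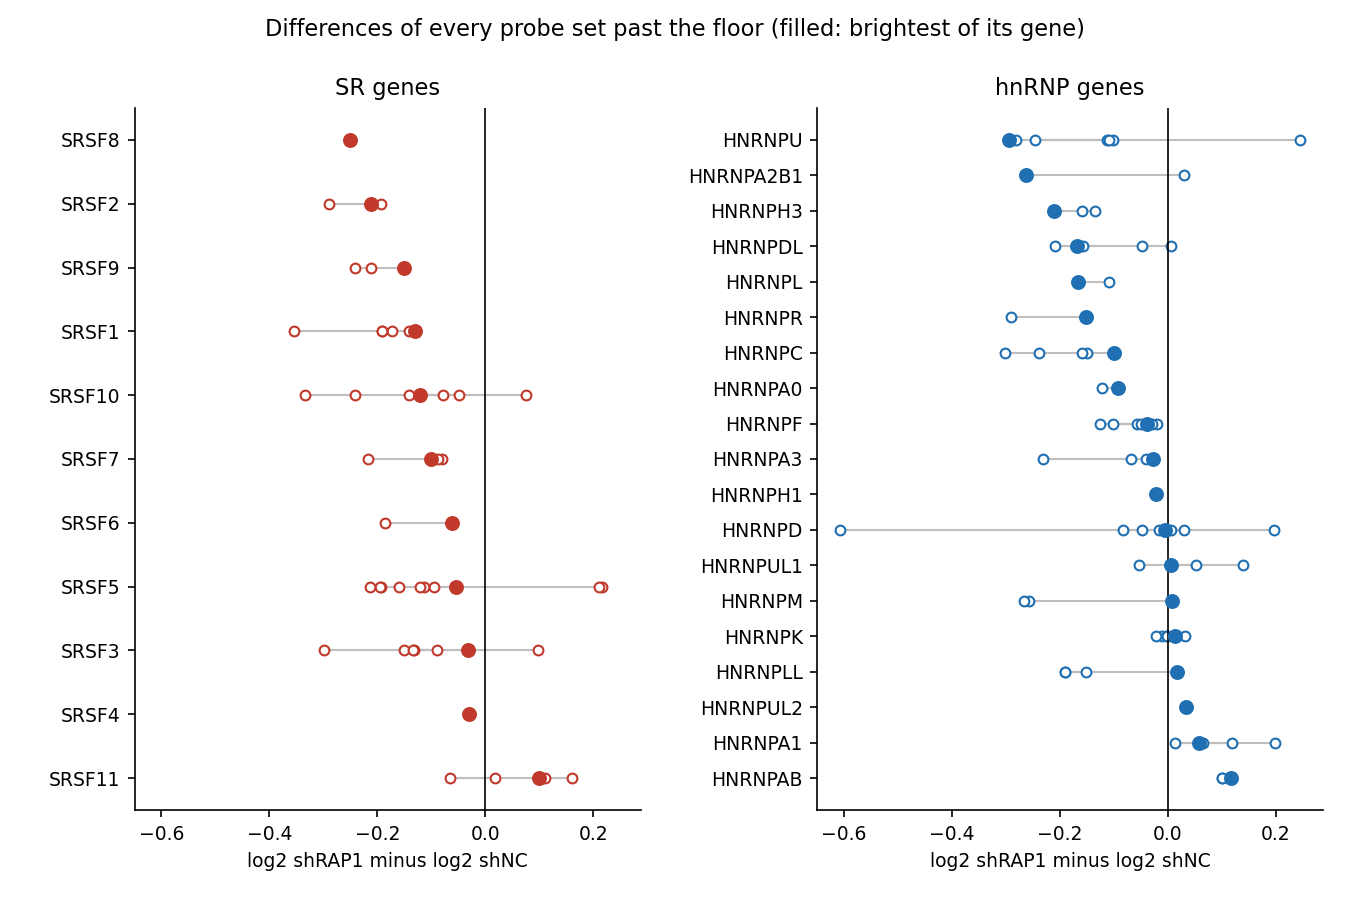
Log2 difference (shRAP1 minus shNC, horizontal axis) of every probe set past the floor for the 11 SR genes (left) and 19 hnRNP genes (right); filled points are the brightest probe set of a gene, open points the others, and grey lines join the probe sets of 1 gene. Most points lie left of 0, and HNRNPD, HNRNPU and SRSF5 have the widest spread.

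The hnRNP A/B and D proteins, which bind UAGG-like or AU-rich RNA through paired RNA recognition motifs, did not move together. HNRNPA2B1, a reader and packager of RNA that also binds telomeric repeats in vitro, read 4864 in shRAP1 and 5833 in shNC, a difference of −0.26, but its other probe set, of lower signal, was at 0.03 (866 in shRAP1 and 848 in shNC). HNRNPA1, a classical splicing repressor, went the other way with 12035 in shRAP1 and 11569.8 in shNC (0.06), and its 5 probe sets were all higher, between 0.01 and 0.20. HNRNPAB was likewise higher on each of 3 probe sets, with 4812 in shRAP1 and 4439 in shNC (0.12) on the brightest. Thus the 2 genes with several probe sets that were all higher both belong to this subfamily, while HNRNPA0 (−0.09) and HNRNPA3 (−0.03) were lower on each of 2 and 4 probe sets.
HNRNPDL, a relative of HNRNPD, had 1437 in shRAP1 and 1616 in shNC (−0.17), with 4 of 5 probe sets lower. HNRNPD, also called AUF1, which binds AU-rich elements and affects mRNA decay, was near 0 on its brightest probe set, with a sign that turned under lowess centring, as did that of HNRNPH1. It had 3613 in shRAP1 and 3628 in shNC (−0.0057).

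The hnRNP U genes encode nuclear proteins that bind both RNA and chromatin. HNRNPU, the scaffold attachment factor of this group, had 3580 in shRAP1 and 4389 in shNC, or 81.6% of the control, and 6 of its 7 probe sets past the floor were lower, between −0.29 and −0.10. HNRNPUL1 (0.0063) and HNRNPUL2 (0.03), both linked to DNA break processing, differed little, and the sign of HNRNPUL1 turned with median centring. The lower signal in this group was that of HNRNPU.

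HNRNPC, which coats uridine tracts and keeps Alu-derived exons out of mRNA, was lower on each of 5 probe sets past the floor. Its brightest read 8730.3 in shRAP1 and 9351 in shNC (−0.10) and the dimmest of the 5 read 434 in shRAP1 and 534 in shNC (−0.30). HNRNPR was lower on each of 3, with 5087 in shRAP1 and 5647 in shNC (−0.15) on the brightest and −0.29 on the dimmest. HNRNPL, which binds CA repeats, was lower on both probe sets at −0.17 and −0.11. For these 3 genes all probe sets assigned to the gene alone had the same sign; a probe set that HNRNPL shares with ECH1 was higher, at 0.16.

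Of the hnRNP F/H proteins, which bind G tracts, HNRNPH3 was lowest, with 1563 in shRAP1 and 1809 in shNC (−0.21) and 3 probe sets between −0.21 and −0.13. HNRNPF was lower on each of 7 probe sets by small amounts, from −0.13 to −0.02, and HNRNPH1 was at −0.02 on its only one. HNRNPH2 has no probe set of its own. It has 3 probe sets shared with the RPL36A-HNRNPH2 readthrough. The brightest was at −0.15, with 995 in shRAP1 and 1102 in shNC. The others were at −0.27 (824 in shRAP1 and 992 in shNC) and −0.09. HNRNPK, which binds C-rich RNA through KH domains, was close to level, with 4226 in shRAP1 and 4187 in shNC and 6 probe sets between −0.02 and 0.03.

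Other probe sets shared between symbols followed the single-gene ones except at HNRNPL. Those shared by HNRNPA1 and HNRNPA1P10 were higher at 0.06 and 0.12, and those shared by HNRNPA3 and HNRNPA3P1 were lower at −0.11 and −0.21. One shared by ECH1 and HNRNPL was higher at 0.16, with 465 in shRAP1 and 416 in shNC. The probe set shared by BSCL2 and HNRNPUL2-BSCL2 was at −0.0011, and that shared by HNRNPCL2, HNRNPCL3 and HNRNPCL4 was below the floor.

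Several probe sets of a gene are read from the same 2 arrays, so they test the reading of a transcript and are not replicates. Some had nearly equal differences, such as 0.0998 and 0.0998 for HNRNPAB and −0.191 and −0.191 for HNRNPLL. Whether such probe sets share probes was not tested, so the counts of probe sets may hold the same reading more than once. Where a gene had several probe sets past the floor (26 genes), 12 were lower on each, 2 higher on each and 12 had both signs. Among all 6135 such genes 31% were lower on each, 29.2% higher on each and 39.8% had both signs. How often all probe sets share a sign depends on their number per gene, which was not matched here. By probe set, 94 of 125 were lower and 31 higher, against 50.6% lower and 49.4% higher of 23141 probe sets in all. Of the 125, 10 (8%) were lower by 1.2-fold or more against 4.91% of all, and none was higher by that size against 4.84%.

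The brightest probe sets had a median of −0.06, with 22 of 30 lower, and the others one of −0.11, with 72 of 95 lower. A lean the same way was present in all genes. There 46.8% of the brightest were lower, with a median of 0.01, and 53.7% of the others, with a median of −0.01. Of the 30 brightest probe sets, 22 had names ending in _s_at or _x_at, the marks of probes that can match several genes. The 42 probe sets with names ending in _at or _a_at had a median of −0.15, with 33 lower, and the 83 ending in _s_at or _x_at had a median of −0.07, with 61 lower. In all genes both kinds had medians near 0, at 0.00058 and −0.0065. By gene, leaving out the _s_at and _x_at probe sets gave a median of −0.12 over the 22 genes that remained.

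**Figure D3:**
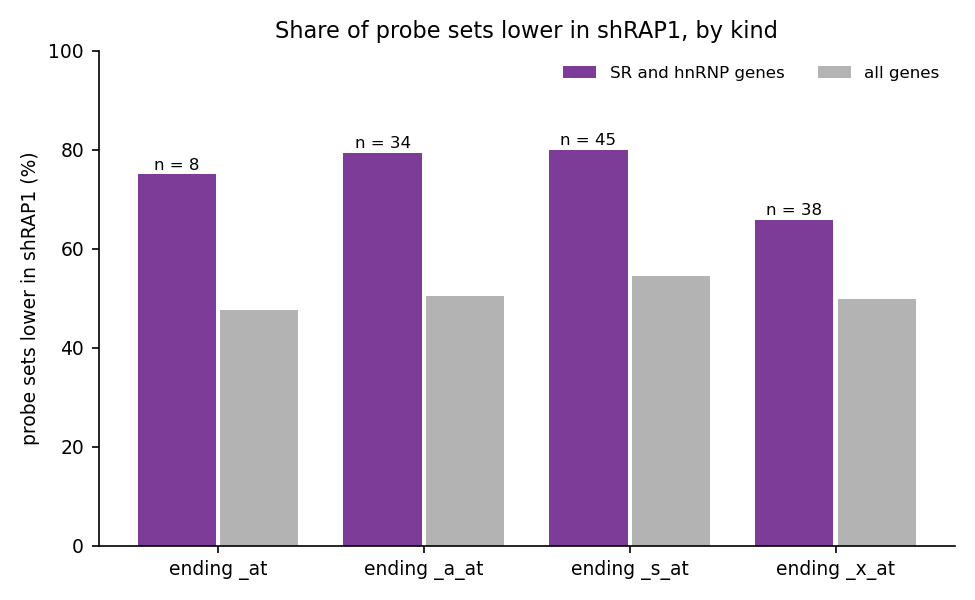
Percent of probe sets past the floor that were lower in shRAP1 than in shNC, for SR and hnRNP genes (purple, with the number of probe sets above each bar) and for all genes (grey), by the ending of the probe set name. The purple bars run from 65.8% to 80.0% and the grey bars from 47.7% to 54.4%.

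HNRNPM, HNRNPD, HNRNPU and SRSF5 show how far 2 probe sets of a gene can part; they were chosen after their values were seen. For HNRNPM, a regulator of splicing in the epithelial to mesenchymal transition, the brightest probe set was level, with 9611 in shRAP1 and 9561 in shNC, and its sign turned with median centring. The other 2 were lower at −0.26 and −0.27, with 3704 in shRAP1 and 4429 in shNC, and 2487 in shRAP1 and 2993 in shNC. HNRNPLL, which controls CD45 splicing in lymphocytes, showed the same arrangement, level on its brightest probe set (0.02) and between −0.19 and −0.15 on the other 3. Without the _x_at and _s_at probe sets HNRNPM would be at −0.26 and HNRNPA2B1 at 0.03.
For HNRNPD, a probe set ending in _a_at read 177 in shRAP1 and 270.0 in shNC. Its difference of −0.61 was the lowest of all 125. The next lowest of HNRNPD was −0.08, and a different one stood at 0.20 with 480 in shRAP1 and 418 in shNC. For HNRNPU, 1 probe set was higher at 0.24, with 188 in shRAP1 and 159 in shNC, the highest difference of the 125. That probe set was designed on a non-coding RNA record, while the other 6 past the floor, from other records, were all lower.

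SRSF5, an SR protein with a pair of RNA recognition motifs, had 2655 in shRAP1 and 2758 in shNC (−0.05) on its brightest probe set. Of its 10 probe sets past the floor 8 were lower, between −0.21 and −0.05, and 2 were higher at 0.22 and 0.21. Each of the 2 higher ones was designed on the same sequence record as one of the lower ones. In the first such pair the signals were 877 in shRAP1 and 1017 in shNC on one probe set, and 359 in shRAP1 and 311 in shNC on the other. In the second pair they were 1073 in shRAP1 and 1226 in shNC on one, and 662 in shRAP1 and 569.6 in shNC on the other. The differences within these pairs parted by 0.42 and 0.41. Of 2331 such pairs over all genes, 20, or 0.858%, parted by more than 0.4, a size chosen after these values were seen, and the other 16 pairs within the SR and hnRNP genes did not.

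**Figure D4:**
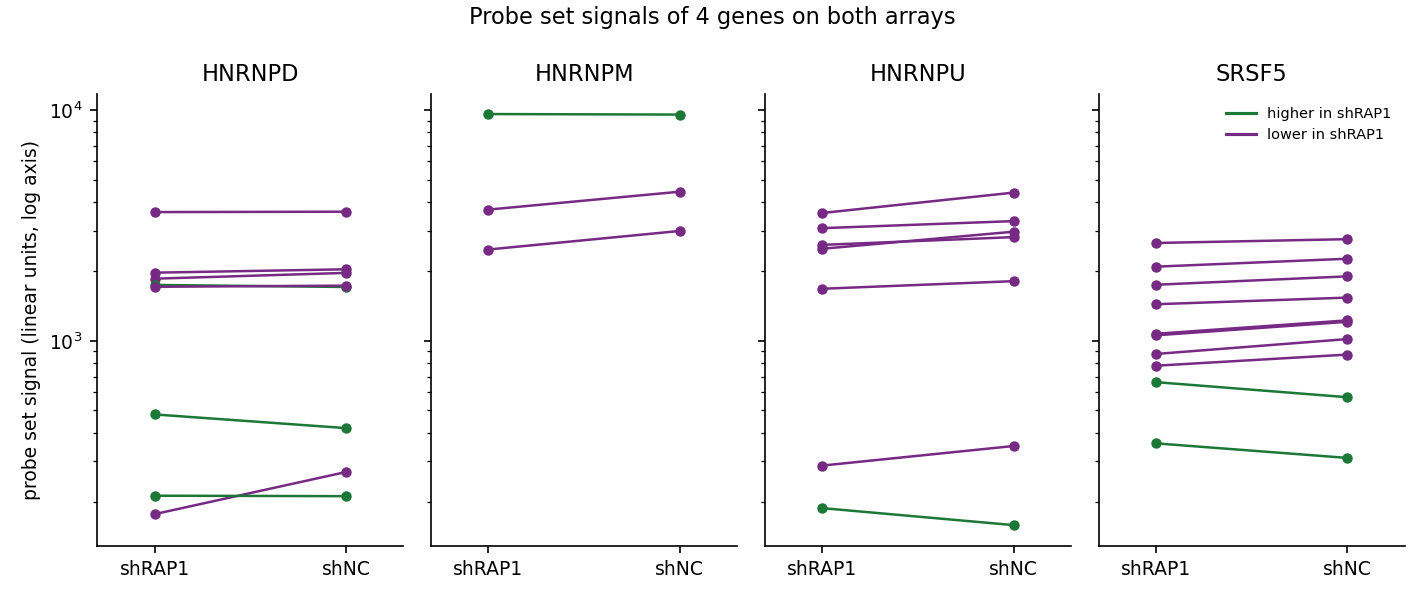
Signals (linear units on a log axis) of every probe set past the floor for HNRNPD, HNRNPM, HNRNPU and SRSF5, with the shRAP1 array left and the shNC array right of each line; green lines are probe sets higher in shRAP1 and purple lines those lower. In SRSF5 2 green lines lie below 8 purple ones, and in HNRNPM the topmost line is flat while the other 2 slope.

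The other genes of the splicing pathway were taken from lists, and from each list the 3 genes with the largest difference in size are named. The counts below stand beside the 46.8% of all genes that were lower, and differences between lists were not tested. Proteins of the U4/U6.U5 tri-snRNP, which joins the spliceosome for catalysis, were lower in 15 of 18 genes with a median of −0.11. PRPF31, which bridges the U4 and U5 parts, was at −0.25 (533 in shRAP1 and 633 in shNC), USP39 at −0.23 and LSM6, of the ring on U6 RNA, at −0.21, and each was lower on all of its probe sets. Proteins of the U1 and U2 snRNPs and the Sm ring were lower in 14 of 22 genes with a median of −0.04. Among them the polypyrimidine tract binder U2AF2 was at −0.20 (0.05 on its second probe set), the U1 protein SNRNP70 at 0.18 and the Sm protein SNRPE at −0.17. None of these genes reached 1.2-fold.

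The lists of proteins that work beside the SR family lay near all genes, which had a median of 0.01 with 53.2% higher. For SR-related proteins under other symbols the median was 0.0059, 5 of 9 being higher; it turned to −0.0039 with median centring. RNPS1, a splicing activator found in the exon junction complex, had 3922 in shRAP1 and 3220.3 in shNC, a difference of 0.28 with 7 probe sets that were all higher, between 0.22 and 0.38. The speckle coactivators SRRM1 and SRRM2 were at 0.17 (6 of 7 probe sets higher) and 0.16 (5 of 5 higher). While these named genes were all higher, 4 of the 9 SR-related genes were lower, down to −0.15. For SR kinases and import factors the median was 0.0090, 5 of 8 being higher, and −0.00071 with median centring. Within them the CLK kinases, which phosphorylate SR proteins in the nucleus, differed in sign: CLK4 was at −0.17 with 1 of 3 probe sets higher at 0.23, CLK1 at −0.15 with all 3 probe sets lower, and CLK3 at 0.13.

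The hnRNP proteins under other symbols were lower in 9 of 15 genes with a median of −0.04. RBMX, or hnRNP G, was at 0.23 with 2 of 3 probe sets higher, the neuronal repressor PTBP2 at −0.14 and RALY, a relative of hnRNP C, at −0.12. Other regulators were lower in 10 of 19 genes, with a median of −0.0017 that turned to 0.0072 with lowess centring. RBM4 was at 0.34 (126 in shRAP1 and 99.7 in shNC), the paraspeckle protein PSPC1 at −0.25 with 1 of 3 probe sets higher, and RBM10 at −0.20. Of 7 nonsense-mediated decay factors 4 were lower with a median of −0.07. By the median over each gene's probe sets the decay factors had a median of −0.0085. It turned to 0.041 over the 6 decay factors left without the _x_at and _s_at probe sets. SMG1, the kinase of that pathway, was at 0.22 with both probe sets higher, SMG6 at −0.11 and UPF1 at −0.08 with the other 2 probe sets of UPF1 higher. Over these 7 lists, 2 of 98 genes past the floor were higher by 1.2-fold, RNPS1 and RBM4, and 0 lower, both below the 4.96% and 3.58% of all genes.

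**Figure D5:**
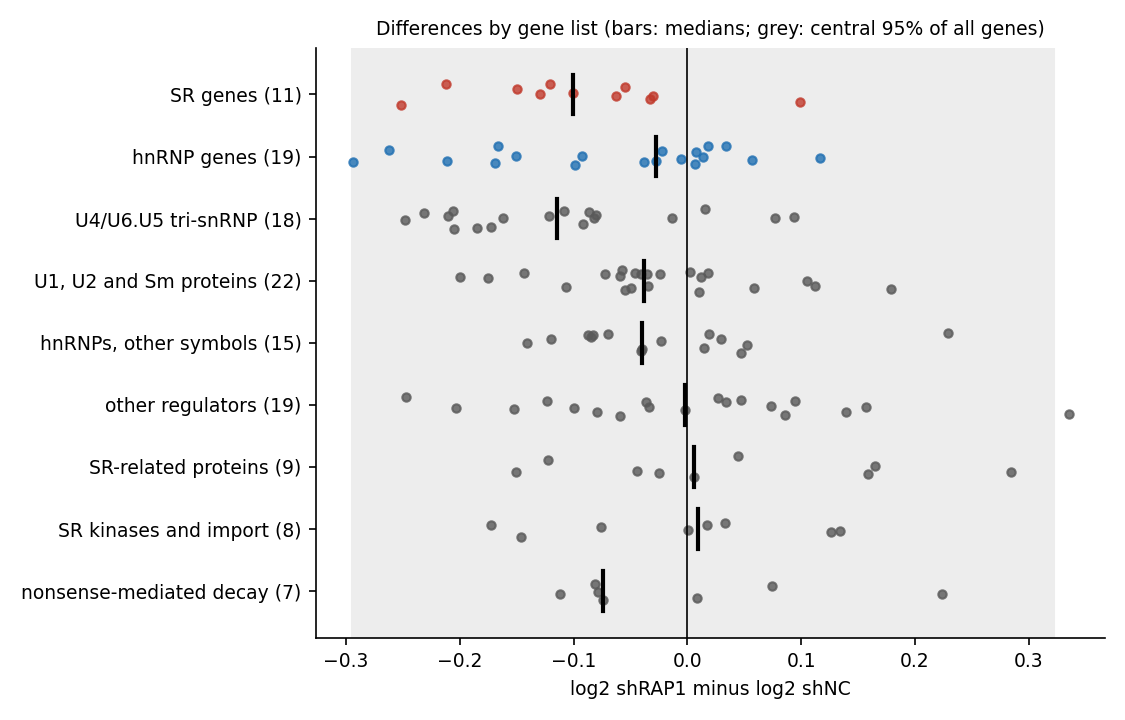
Log2 difference (shRAP1 minus shNC, horizontal axis) of each gene past the floor in the SR and hnRNP families and in 7 lists of related genes, with the number of genes in brackets; black bars are medians and the grey band holds the central 95% of all genes, from −0.29 to 0.32. The medians of SR genes (−0.10) and of the U4/U6.U5 proteins (−0.11) lie furthest left, and RBM4 lies right of the band.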

How the data were processed

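Total RNA of 2 HCT116 cultures was amplified and labelled with a 3′ IVT kit and hybridised to 1 Affymetrix array each, per the labels' protocols. Each deposited value is the intensity of a probe set. The authors used RMA, per the submitters' processing notes, with a version not given in the sources used here. A maximum of 25726 on both arrays shows a linear scale. RMA normalises between arrays by quantiles, so differences are relative to other genes. Log2 was taken here with no pseudocount.

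Of 49293 non-control probe sets, 44988 had 1 gene symbol in the platform annotation, 1832 had several and 2473 none; only the first were used for genes. All 34 symbols matched the RefSeq table of GRCh38.p14 by gene ID. The members, lists and naming rule were chosen with earlier results of these data known. All members are named, and from each list the 3 genes with the largest difference. With 1 array per group no test was run; counts used a size of 1.2-fold, and medians were set beside those of all genes. The gene summary was run on simulated data with planted shifts larger than any difference of the SR and hnRNP genes. That run therefore cannot show how well differences as small as theirs are recovered. Python 3.11.15, numpy 2.4.6, pandas 2.3.3, statsmodels 0.14.6 and matplotlib 3.10.9 were used. Alternatives changed the gene summary, the floor, the probe sets, the centring, the size counted and the summary of a list.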

Additional observations from a re-analysis of the deposited data

How the results depend on the processing

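The SR and hnRNP genes kept a negative median under every alternative run, between −0.12 and −0.03, and so did SR genes alone (−0.12 to −0.07) and hnRNP genes alone (−0.13 to −0.0022). The count lower by 1.2-fold (1) became 0 by the median over a gene's probe sets, 3 without the _x_at and _s_at probe sets, 2 with median-centred differences, and 0 at 1.5-fold and at 2-fold. The count of higher genes (8) became 5 by the median over probe sets and 5 without the _x_at and _s_at probe sets, where 22 genes remained, and it was 10 with lowess centring and 11 with no floor. Some list medians changed sign. SR-related proteins went to −0.0039 with median centring. SR kinases and import went to −0.00071 with median centring and −0.011 as a mean. Other regulators went to 0.027 with no floor and 0.0072 with lowess centring. Nonsense-mediated decay went from −0.07 to 9.2e-05 with the floor at the 75th percentile and 0.041 without the _x_at and _s_at probe sets. Of 172 single-gene values, 161 moved by less than the SD of genes of similar signal and 11 by more, each under the median over probe sets or without the _x_at and _s_at probe sets; the cause was not tested. Signs turned for HNRNPK, HNRNPLL and HNRNPM by the median over probe sets, HNRNPA2B1 and HNRNPM without the _x_at and _s_at probe sets, HNRNPD and HNRNPH1 with lowess centring, and HNRNPM and HNRNPUL1 with median centring. No paired analysis was possible because each group is 1 array. Signals near the floor limit what small differences can show.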

Other observations

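For 6 SR and hnRNP genes, a gene past the floor starts on the opposite strand 94 to 720 bases away; this set was chosen after the values were seen. The start of LRRC40, which encodes a protein with leucine-rich repeats, lies 117 bases from that of SRSF11, inside the SRSF11 window printed above. LRRC40 had 524 in shRAP1 and 800.0 in shNC on its only probe set, a difference of −0.61, while SRSF11 was at 0.10. RMI1, of the BLM dissolvasome, was lower on each of 4 probe sets, between −0.30 and −0.0033, with HNRNPK at 0.01. ENOPH1 was at −0.17 beside HNRNPDL at −0.17, and CBX3 at −0.08 beside HNRNPA2B1 at −0.26. DYNLL1 was at −0.09 beside SRSF9 at −0.15, and TTC9C at 0.07 beside HNRNPUL2 at 0.03. HNRNPK turned to −0.0010 by the median over its probe sets, and HNRNPA2B1 to 0.03 without the _x_at and _s_at probe sets. Such pairs were not counted over all genes, and whether these neighbours move together was not tested.

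Wide spreads between probe sets, as at SRSF5, also occurred in related genes, which were chosen after their values were seen. Over all genes with several probe sets past the floor, the median spread was 0.13. For the 26 such SR and hnRNP genes it was 0.20. These spreads were not matched for the number of probe sets. TRA2A, a splicing activator related to SR proteins, ran from −0.23 to 0.50 over 5 probe sets. SON, a large speckle protein, ran from −0.02 to 0.41 over 3, and SYNCRIP, or hnRNP Q, from −0.34 to 0.05 over 7 with 1 higher.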
